A study of Mus musculus with 12 samples.

Results

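The matrix metalloproteinase (MMP) genes Mmp9, Mmp14, Mmp12, Mmp8, Mmp25 and Mmp19 and the tissue inhibitor of metalloproteinases (TIMP) genes Timp1, Timp2 and Timp3 were followed in preosteoclasts with and without LSD1. They were taken by symbol from a count table of 57010 genes, and all 9 were among the 15425 genes that were tested. The table lists 18 more Mmp and Timp genes, of which 8 were tested.

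MMPs are zinc-dependent proteinases that cleave collagen and other matrix proteins, and most are made as inactive precursors. TIMPs bind the active enzymes and block them, and the balance of both sets how much matrix is degraded. In bone, osteoclasts secrete MMP9 and carry MMP14 at the cell surface beside the acid proteinase cathepsin K, and in inflamed gum tissue MMP8 of neutrophils is a well-known collagenase.

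The 12 libraries came from female mice, with 2 libraries in each of 6 conditions. LSD1cKO mice carry LysM-Cre, which is driven by the Lyz2 promoter of myeloid cells, and lack LSD1 (encoded by Kdm1a, a histone demethylase) in those cells, and LSD1WT mice were the controls. The cultures were ligated mandible, ligated femur and unligated femur, named by the bone that gave the marrow and by the ligature of the mouse. Ligated mice had silk ligatures around upper-jaw (maxillary) molars on both sides for 7 days to induce periodontitis. The mandible itself thus carried no ligature. Flushed marrow was kept for 2 days with M-CSF and RANKL, the cytokines that drive osteoclast formation, before polyA RNA was sequenced. The age was 2 months by the sample labels and 3 months by the sequencing methods of the study. The labels name 9 mice, 5 LSD1WT and 4 LSD1cKO, and 3 of them (1 LSD1WT and 2 LSD1cKO) gave a mandible and a femur library. Replicates are numbered 1 and 2, apart from 1 and 3 in mandible LSD1WT. For that replicate 3 the library name gives femur and the title gives mandible, and it was used as mandible.

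Total counts per library ran from 21375805 to 32526751. Kdm1a was at 61.2 to 71.3 CPM (counts scaled for library size with TMM factors) in LSD1WT and at 15.6 to 24.3 CPM in LSD1cKO. The mandible LSD1WT libraries were nearly identical, with a biological coefficient of variation of 0.0247 against 0.0987 to 0.716 in the other 5 pairs, so their spread may be technical. Replicate 2 of femur LSD1WT stood apart in both femur cultures. The summed level of 12 osteoclast genes (among them Acp5, Dcstamp and Calcr) was 905 CPM in the ligated and 797 CPM in the unligated library, against 5866 to 14879 CPM in the other 10. The summed level of 12 macrophage genes was 49360 and 24979 CPM there, against 2910 to 10968 CPM elsewhere. These libraries go against the label of preosteoclasts, and the values without them are given beside the results that they move. Fewer osteoclasts and less RNA per osteoclast cannot be told apart in such bulk samples.

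The sequence before the transcription start is shown for the member whose genotype difference was called (Mmp25) and for a pair that moved in opposite directions between the femur LSD1WT libraries (Mmp14 and Mmp8). Each is the 250 bases before the start in RefSeq GRCm38.p6, read 5′ to 3′ on the gene's strand, and capitals mark matches to the motifs listed after them.
Mmp25, chr17:23645270-23645519, minus strand: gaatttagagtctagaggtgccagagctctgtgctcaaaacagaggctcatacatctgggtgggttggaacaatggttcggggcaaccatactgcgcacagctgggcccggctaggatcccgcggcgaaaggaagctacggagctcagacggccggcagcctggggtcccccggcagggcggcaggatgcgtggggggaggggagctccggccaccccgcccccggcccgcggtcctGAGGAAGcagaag
Mmp14, chr14:54431348-54431597, plus strand: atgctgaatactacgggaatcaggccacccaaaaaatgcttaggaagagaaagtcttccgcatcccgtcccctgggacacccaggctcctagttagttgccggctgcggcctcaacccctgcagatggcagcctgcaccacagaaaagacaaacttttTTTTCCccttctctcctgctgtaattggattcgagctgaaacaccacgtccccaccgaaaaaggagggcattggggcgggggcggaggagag
Mmp8, chr9:7558179-7558428, plus strand: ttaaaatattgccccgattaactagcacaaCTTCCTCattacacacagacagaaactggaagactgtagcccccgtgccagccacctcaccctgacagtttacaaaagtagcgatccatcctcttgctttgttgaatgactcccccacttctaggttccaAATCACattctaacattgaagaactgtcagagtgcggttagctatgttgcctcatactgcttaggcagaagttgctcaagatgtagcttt
The motifs were searched on both strands and did not overlap in these windows. GAGGAAG, a core of the myeloid factor PU.1, was in the Mmp25 and Mmp8 windows and in 10.6% of all 32851 windows of this length. AATCAC, a core of GFI1 sites, was in the Mmp8 window and in 9.14% of all windows. GGAAAA, an NFAT core, was in the Mmp14 window and in 20.4% of all windows. TGANTCA of AP-1 and the interferon-stimulated response element were in none of the 3 windows, against 6.75% and 2.98% of all windows. Of the 9 members, 7 have a window in the RefSeq table. The guanine and cytosine content was 66.0% for Mmp25, 55.2% for Mmp14 and 44.8% for Mmp8, with a median of 52.4% over all windows.

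Per kilobase of exon, Mmp9 stood far above the other members. Its mean level over the 12 libraries was 2501 CPM per kb, followed by Mmp14 at 60.9, Timp2 at 50.2, Mmp8 at 13.5, Mmp19 at 8.15 and Mmp12 at 7.01 CPM per kb. Timp1 (0.68), Mmp25 (0.32) and Timp3 (0.24 CPM per kb) were lowest. Mmp14 and Timp2 overlapped in their ranges per kilobase, and so did Mmp8, Mmp19 and Mmp12. Among all genes, Mmp9 ranked between the highest and the ninth highest by count in 10 libraries, in which it made up 0.495% to 2.02% of all counts. Among the 3 inhibitors, Timp2 held 94.9% to 99.6% of the counts. In these cultures the transcripts were thus mostly gelatinase Mmp9 among the 6 MMP members and Timp2 among the 3 inhibitors. The pair of LSD1WT libraries named above differed for Mmp9, which held 8.17% and 35.6% of the counts of the 6 MMP members there.

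**Figure D1:**
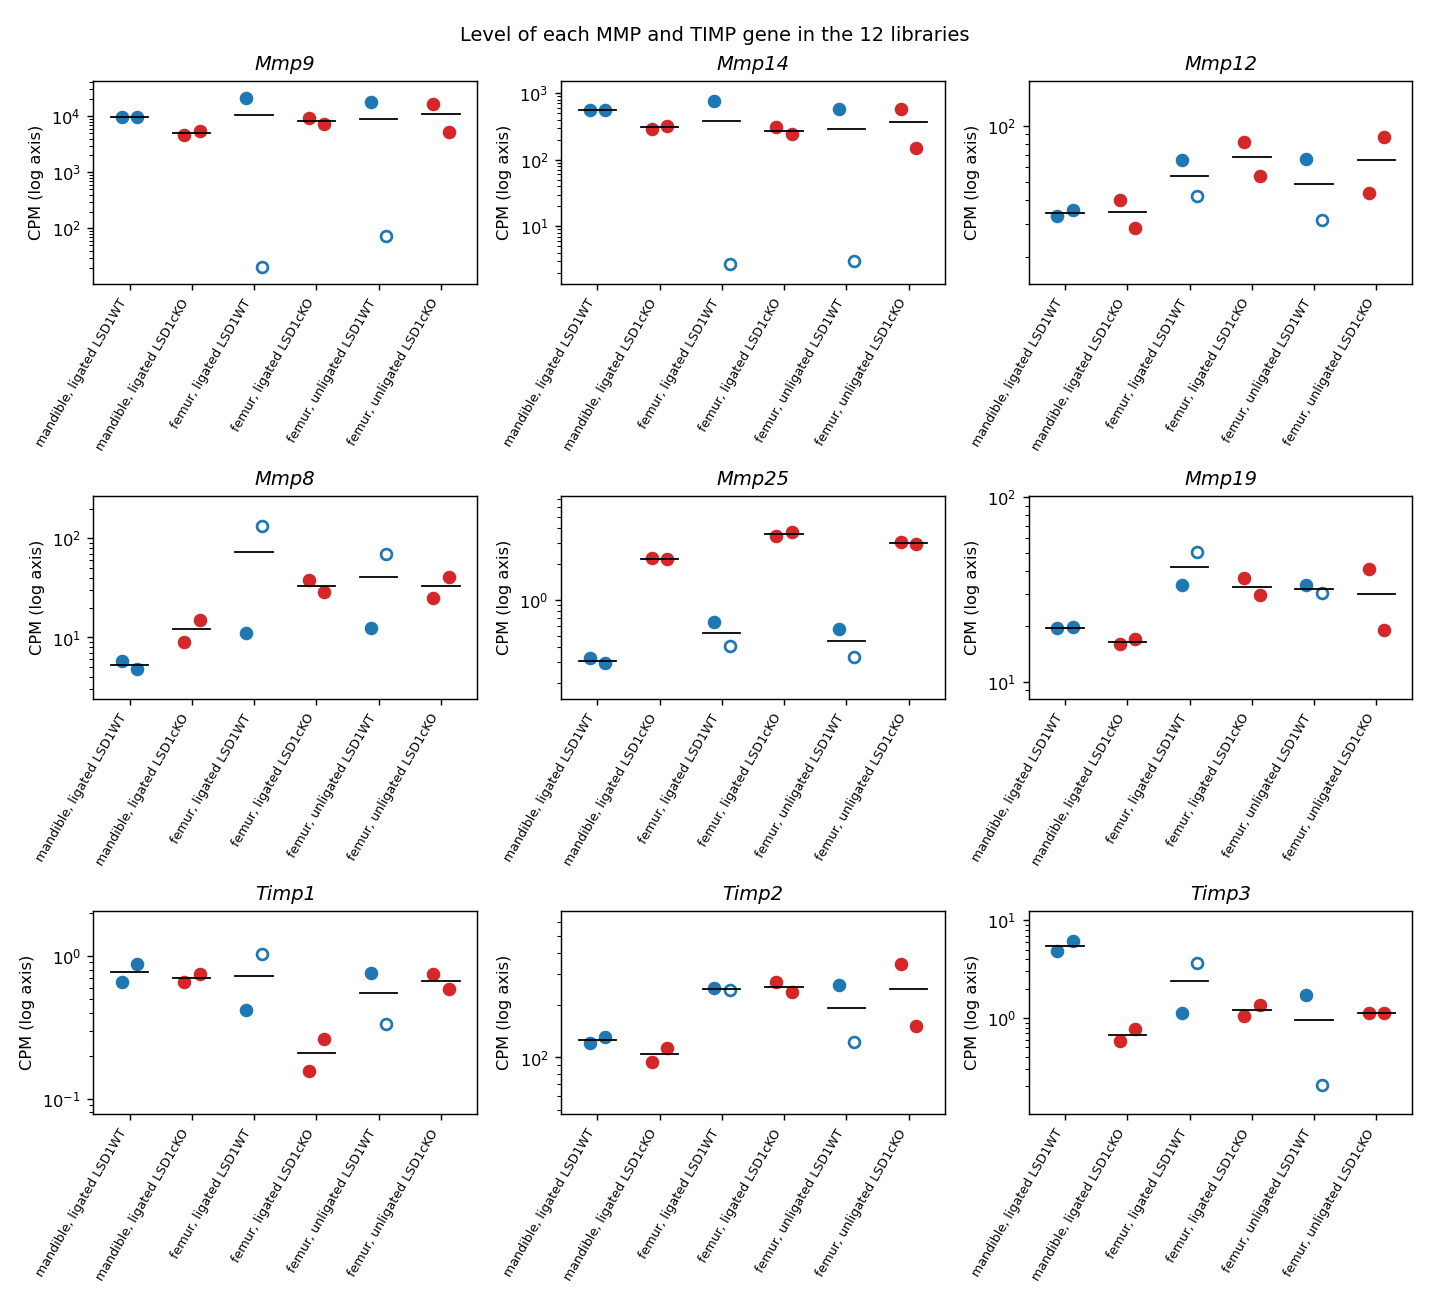
CPM on log axes of the 9 members in each library, grouped by condition (blue, LSD1WT; red, LSD1cKO; open blue circles, replicate 2 of femur LSD1WT; black line, mean of the 2 libraries). Mmp25 is at 0.293 to 0.647 CPM in LSD1WT and at 2.19 to 3.72 CPM in LSD1cKO, while Mmp9 and Mmp14 drop in the open circles and Mmp8 rises there.

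Mmp25 was higher without LSD1 in each culture. It encodes MT6-MMP (leukolysin), which is tethered to the membrane by a lipid anchor and is best known from neutrophils. In ligated mandible Mmp25 (ENSMUSG00000023903) had 0.326 and 0.293 CPM with LSD1 and 2.23 and 2.19 CPM without it. In ligated femur it had 0.647 and 0.410 CPM with LSD1 and 3.42 and 3.72 CPM without it. In unligated femur it had 0.572 and 0.331 CPM with LSD1 and 3.06 and 2.93 CPM without it. All 6 LSD1cKO libraries lay above all 6 LSD1WT libraries, also where the femur LSD1WT replicates differed strongly in osteoclast genes. Such a separation upward was found in 1.98% of all genes tested.

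Over the 3 cultures Mmp25 averaged 0.430 ± 0.146 CPM (SD, n = 6) with LSD1, and 2.93 ± 0.619 CPM without it (SD, n = 6). Here n counts libraries, from 5 LSD1WT and 4 LSD1cKO mice, and the fit treats them as independent. The fitted log2 fold change was 2.75 (standard error 0.20, 6.74-fold higher), with an adjusted p of 1.09e-04 (edgeR, quasi-likelihood, Benjamini-Hochberg). Of the 15425 genes, 3.53% were called in this comparison and Mmp25 ranked 8 by p. The fold rests on low counts, 8 to 20 reads in the LSD1WT libraries and 65 to 88 in the LSD1cKO libraries. The increase was near in size in the 3 cultures, with log2 fold changes of 2.82 in ligated mandible (standard error 0.42), 2.73 in ligated femur (standard error 0.40) and 2.71 in unligated femur (standard error 0.41). Taken alone, none of these passed, with adjusted p values of 0.124, 0.0837 and 0.182 (edgeR), and at most 1 gene of all was called in any of them (0%, 0.00648% and 0%). The genotype effect differed by 0.09 between mandible and femur (standard error 0.51) and by 0.02 between ligated and unligated femur (standard error 0.63), and neither difference passed. The 12 neutrophil genes summed to 111 to 339 CPM in LSD1WT and 139 to 331 CPM in LSD1cKO, with overlap. Levels within that list ranged from those of Ly6g (0 to 0.311 CPM) to those of S100a9 (23.9 to 117 CPM).

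**Figure D2:**
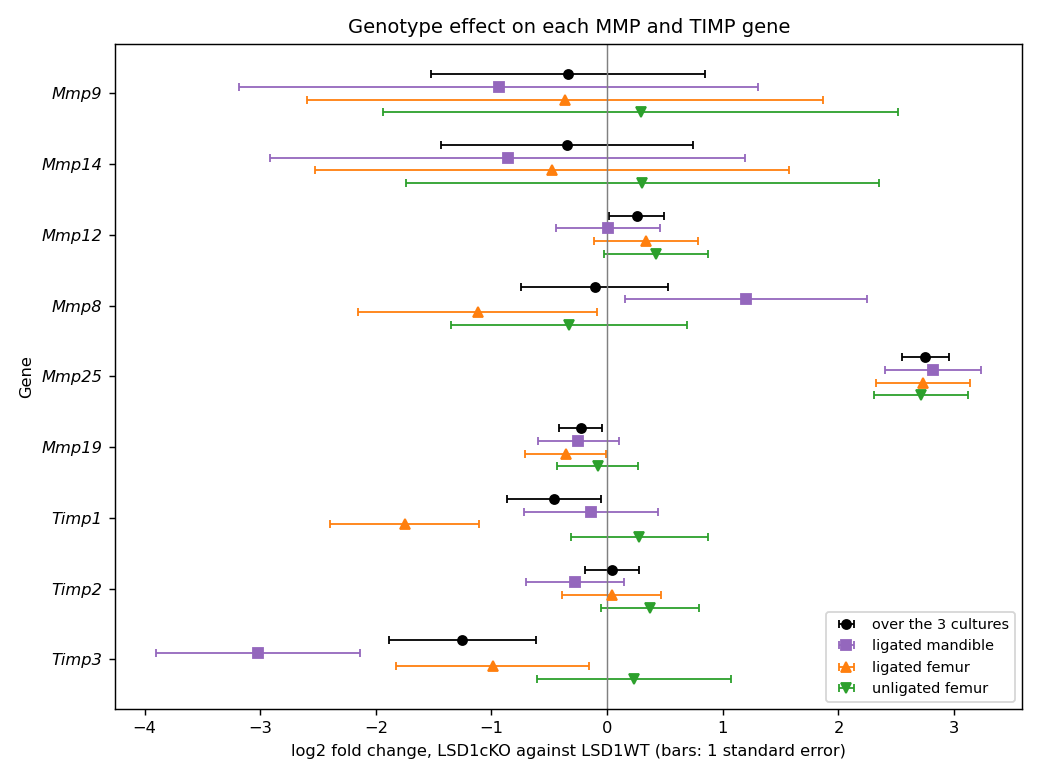
Log2 fold change of LSD1cKO against LSD1WT for each member (points) with 1 standard error (bars), over the 3 cultures and in each culture. The 4 Mmp25 points lie between 2.71 and 2.82, and the wide bars of Mmp9 and Mmp14 in single cultures come with standard errors of 2.04 to 2.25.

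Mmp9, the gelatinase that osteoclasts secrete, had lower levels in the mandible LSD1cKO libraries, short of the threshold, and scattered widely in the femur. In ligated mandible Mmp9 (ENSMUSG00000017737) had 9565 and 9631 CPM with LSD1 and 4571 and 5443 CPM without it, a ratio of 0.522. In ligated femur it had 21231 and 20.4 CPM with LSD1 and 9243 and 7229 CPM without it. In unligated femur it had 17598 and 74.3 CPM with LSD1 and 16251 and 5336 CPM without it. The mandible genotypes did not overlap, as was the case for 68.9% of all genes, whereas both LSD1cKO femur libraries fell between the LSD1WT replicates.

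Mmp14, the membrane-bound MT1-MMP that cleaves collagen and activates pro-MMP2, was high and low in the same libraries at a lower level. In ligated mandible Mmp14 (ENSMUSG00000000957) had 554 and 565 CPM with LSD1 and 292 and 323 CPM without it, a ratio of 0.550. In ligated femur it had 760 and 2.72 CPM with LSD1 and 307 and 241 CPM without it. In unligated femur it had 585 and 3.02 CPM with LSD1 and 574 and 151 CPM without it. The log2 CPM of Mmp9 and Mmp14 had a Pearson r of 0.98 over the 12 libraries, given as a description of libraries that include the distant pair of femur LSD1WT.

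Over the 3 cultures neither gene was called. The log2 fold change was -0.34 for Mmp9 (standard error 1.18) and -0.35 for Mmp14 (standard error 1.09), with adjusted p values of 0.933 and 0.923 (edgeR). In ligated mandible alone it was -0.94 for Mmp9 and -0.86 for Mmp14, each with an adjusted p of 1.00 (edgeR). Both were called when the fit held the 4 mandible libraries alone, but so were 37.7% of all genes, and the nearly identical LSD1WT pair enters the spread of that fit. Without replicate 2 of both femur LSD1WT cultures the log2 fold changes were -0.96 for Mmp9 and -0.95 for Mmp14, with adjusted p values of 0.0242 and 0.0385 (edgeR), in a fit that called 24.2% of 16008 genes. Those libraries stand out by their low osteoclast genes, and both MMP genes are low in them as well, so leaving them out is not independent of these outcomes. The sign also turned without replicate 1 of ligated femur LSD1WT, to 0.46 for Mmp9 and 0.49 for Mmp14, and without replicate 1 of unligated femur LSD1WT, to 0.14 and 0.12.

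Osteoclast genes moved with Mmp9 and Mmp14. In ligated mandible the 12 osteoclast genes, all above 0, summed to 11634 and 11583 CPM in LSD1WT and to 7441 and 7279 CPM in LSD1cKO, and their part in the MMP difference was not tested. Relative to that sum, a measure chosen after the values were seen, Mmp9 was 0.822 and 0.831 in mandible LSD1WT and 0.614 and 0.748 in mandible LSD1cKO. Over the 10 libraries rich in osteoclast genes the ratio ran from 0.614 to 1.43. In the ligated and unligated femur LSD1WT replicate 2 it was 0.0226 and 0.0933. The genes of the list varied unequally, so this ratio does not show that Mmp9 fell further than each of them. Over the 12 libraries the highest CPM divided by the lowest was 1040 for Mmp9, 923 for Acp5 and 1137 for Dcstamp. It was 3.94 for Tcirg1 and 1.85 for Ostm1 of the same list.

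**Figure D3:**
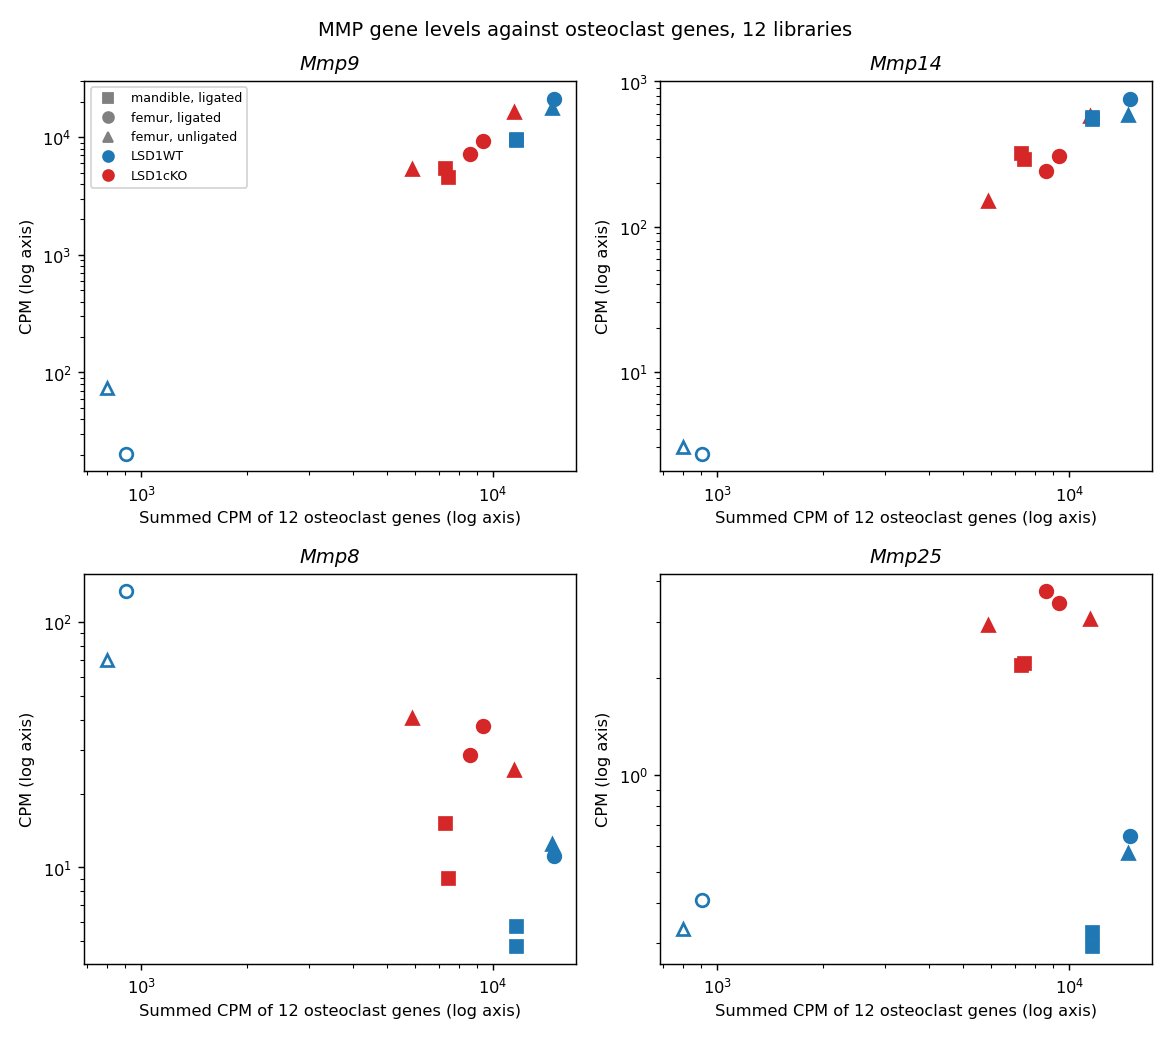
CPM of Mmp9, Mmp14, Mmp8 and Mmp25 (log axes) against the summed CPM of 12 osteoclast genes in each library (squares, mandible; circles, ligated femur; triangles, unligated femur; blue, LSD1WT; red, LSD1cKO; open symbols, replicate 2 of femur LSD1WT). Mmp9 and Mmp14 are low and Mmp8 is high at the left, where the sum is 797 and 905 CPM, and Mmp25 separates by colour.

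Mmp8, the collagenase first described in neutrophils, was highest in the pair of libraries in which Mmp9 and Mmp14 were lowest. In ligated mandible Mmp8 (ENSMUSG00000005800) had 5.79 and 4.77 CPM with LSD1 and 9.10 and 15.2 CPM without it. In ligated femur it had 11.1 and 133 CPM with LSD1 and 37.7 and 28.7 CPM without it. In unligated femur it had 12.5 and 69.8 CPM with LSD1 and 25 and 40.5 CPM without it. Replicate 2 of femur LSD1WT was the highest library of each femur culture, and apart from it each LSD1cKO library exceeded the LSD1WT libraries of its own culture.

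Over the 3 cultures the log2 fold change of Mmp8 was -0.11 (standard error 0.64), with an adjusted p of 0.962 (edgeR). Without both femur LSD1WT second libraries it turned to 1.41. Each of these libraries is the highest in Mmp8 of its culture, so leaving them out is not independent of this outcome. In that fit the log2 fold change in ligated femur alone was 1.66 with an adjusted p of 0.0457 (edgeR), where 9.35% of the genes were called. The direction of Mmp8 thus depends on that pair of libraries in the femur, while in ligated mandible the log2 fold change was 1.20 (standard error 1.05, adjusted p = 1.00 in edgeR). The neutrophil genes, 12 of 12 detected in all but 2 libraries, summed to 153 and 153 CPM in mandible LSD1WT and to 139 and 165 CPM in mandible LSD1cKO. The macrophage genes summed to 3380 and 3434 CPM in mandible LSD1WT and to 2910 and 3659 CPM in mandible LSD1cKO, and both lists overlapped between genotypes there. In ligated femur the neutrophil genes were at 119 CPM in LSD1WT replicate 1 and 339 CPM in replicate 2, against 331 and 299 CPM in LSD1cKO, so they were low and high in the same libraries as Mmp8. In unligated femur they summed to 164 and 111 CPM with LSD1 and to 153 and 231 CPM without it. There LSD1WT replicate 2 had the lower neutrophil sum of its pair and the higher Mmp8. Macrophage genes summed to 6771 and 49360 CPM in ligated and to 9122 and 24979 CPM in unligated femur LSD1WT. In femur LSD1cKO they summed to 10664 and 10968 CPM in ligated and to 7805 and 10079 CPM in unligated mice. The part of these genes in the Mmp8 differences was not tested.

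Mmp8 lies in a cluster of 10 MMP genes that follow each other on chromosome 9, between Mmp10 and Mmp27. In ligated femur LSD1WT replicate 2, Mmp27 was at 39.1 CPM and Mmp13, a collagenase known from bone-forming cells, at 22.0 CPM. In the unligated replicate 2 they were at 21.8 and 9.60 CPM. In the other 10 libraries Mmp27 was at 0.122 to 9.38 CPM and Mmp13 at 1.20 to 2.45 CPM. Mmp27, beside Mmp8, and Mmp13, at an end of the cluster, were thus high in the same libraries as Mmp8. Mmp10, on the other side of Mmp8, was not, at 0 to 0.114 CPM in the femur LSD1WT libraries. It was at 0.432 to 0.652 CPM in the mandible, on 0 to 19 counts per library. Mmp12, of the same cluster, was not high there either, at 42.2 and 31.3 CPM in that femur LSD1WT pair.

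Mmp12 and Mmp19 were not called between the genotypes. Mmp12 (ENSMUSG00000049723), the elastase of macrophages, was at 28.5 to 40.3 CPM in the 4 mandible libraries and at 31.3 to 86.6 CPM in the 8 femur libraries. Its log2 fold change over the 3 cultures was 0.26 (standard error 0.24, adjusted p = 0.676 in edgeR). Mmp19 (ENSMUSG00000025355), a secreted MMP found in many tissues, was at 16.1 to 19.7 CPM in the mandible and at 19.0 to 50.8 CPM in the femur libraries. Its log2 fold change was -0.23 (standard error 0.18, adjusted p = 0.607 in edgeR). On the reference annotation Mmp19 shares exon sequence with Tmem198b on the opposite strand, Timp3 with Syn3 and Mmp12 with Mmp1b, and the strand setting of the counting is not given in the sources used here.

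Of the inhibitors, Timp3 had its genotypes furthest apart, in the mandible. Timp3 stays bound to the matrix and also blocks the shedding proteinase ADAM17. In ligated mandible Timp3 (ENSMUSG00000020044) had 4.85 and 6.20 CPM with LSD1 and 0.584 and 0.772 CPM without it. In ligated femur it had 1.13 and 3.69 CPM with LSD1 and 1.05 and 1.36 CPM without it. In unligated femur it had 1.72 and 0.207 CPM with LSD1 and 1.14 and 1.14 CPM without it. The mandible genotypes did not overlap, as was the case for 68.9% of all genes, and the femur genotypes overlapped.

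The log2 fold change of Timp3 was -3.02 in ligated mandible (standard error 0.88), with an unadjusted p of 0.0082 and an adjusted p of 0.631 (edgeR), and 4.82% of all genes had an unadjusted p under 0.05. It was -0.99 in ligated femur and 0.23 in unligated femur. Over the 3 cultures it was -1.25 (standard error 0.64, adjusted p = 0.376 in edgeR). Without both femur LSD1WT second libraries the mandible value was -2.98 with an adjusted p of 0.0023 (edgeR), in a fit that called 5.85% of the genes in that comparison. The 12 stromal genes moved with Timp3, summing to 61.7 and 60.6 CPM in mandible LSD1WT and to 12.8 and 7.14 CPM in mandible LSD1cKO, with at most 1 of the 12 at 0 in each library. Col1a1 was at 27.8 and 28.5 CPM and then 4.98 and 1.45 CPM, and the part of these genes in the Timp3 difference was not tested. In the femur the stromal genes summed to 0.869 to 35.2 CPM, with 2 to 6 of the 12 at 0.

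**Figure D4:**
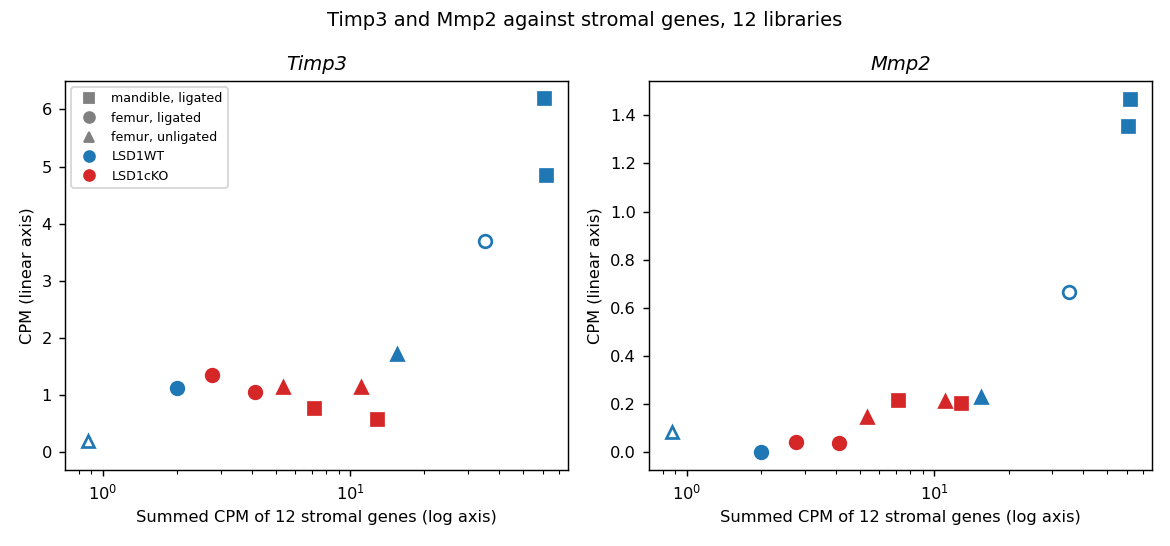
CPM of Timp3 and of Mmp2 (linear axes) against the summed CPM of 12 stromal genes (log axis) in each library, with symbols and colours for culture and genotype (squares, mandible; circles, ligated femur; triangles, unligated femur; blue, LSD1WT; red, LSD1cKO; open symbols, replicate 2 of femur LSD1WT). The mandible LSD1WT libraries lie at the upper right in both panels, at 61.7 and 60.6 CPM of stromal genes.

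Timp2, the abundant inhibitor that also takes part in the activation of pro-MMP2, was not called between the genotypes. Timp2 (ENSMUSG00000017466) had 122 and 131 CPM with LSD1 in the mandible and 94.5 and 114 CPM without it. In ligated femur it had 251 and 245 CPM with LSD1 and 271 and 238 CPM without it. In unligated femur it had 261 and 123 CPM with LSD1 and 345 and 152 CPM without it. Its log2 fold change over the 3 cultures was 0.04 (standard error 0.23, adjusted p = 0.958 in edgeR). Timp1 (ENSMUSG00000001131), the inhibitor that binds pro-MMP9, had 4 to 24 counts per library and was at 0.155 to 1.03 CPM. In ligated femur Timp1 had 0.420 and 1.03 CPM with LSD1 and 0.155 and 0.263 CPM without it, a log2 fold change of -1.75 with an unadjusted p of 0.0246 and an adjusted p of 0.646 (edgeR).

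Taken over the 9 members, 1 rose (Mmp25), 0 fell and 8 were not called over the 3 cultures, against a background of 3.00% of genes higher and 0.532% lower. The median log2 fold change of the members was -0.23 and that of all genes tested -0.06. In the single cultures 0 of 9 were called in edgeR at the adjusted threshold. At an unadjusted p under 0.05 there were 2 in ligated mandible (Mmp25 and Timp3, 4.82% of all genes), 2 in ligated femur (Mmp25 and Timp1, 6.88%) and 1 in unligated femur (Mmp25, 4.95%). DESeq2 called Mmp25 and Timp3 in ligated mandible, where it called 0.947% of all genes. It called Mmp25 in ligated femur (1.41%) and in unligated femur (0.791%).

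Between the bones of ligated mice, several members had lower levels in mandible than in femur preosteoclasts, although none was called unless the mouse was a block or the fit was changed in other ways. Mmp19 was at 19.6 ± 0.138 CPM (SD, n = 2) in mandible and 42.1 ± 12.3 CPM (SD, n = 2) in femur LSD1WT, and at 16.5 ± 0.607 and 32.9 ± 4.89 CPM (SD, n = 2) in LSD1cKO. Timp2 was at 126 ± 6.40 and 248 ± 4.50 CPM (SD, n = 2) in LSD1WT, and at 104 ± 13.6 and 255 ± 23.2 CPM (SD, n = 2) in LSD1cKO. The mandible libraries of both genes lay below the femur libraries in each genotype, as they did for 31.5% of all genes in LSD1WT and 35.0% in LSD1cKO.

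In the comparison of libraries 0 of 9 members were called in either genotype, and 0% of all genes were. At an unadjusted p under 0.05, Mmp8 (log2 difference -3.77) and Mmp19 (-1.10) were lower in mandible LSD1WT, where 19.8% of all genes had such a p. The Mmp8 value rests on replicate 2 of ligated femur LSD1WT, at 133 CPM against 11.1 CPM in replicate 1, and without both femur LSD1WT second libraries the differences were -1.04 for Mmp8 and -0.73 for Mmp19. In LSD1cKO, Timp2 (-1.29) and Mmp19 (-0.99) were lower and Timp1 (1.72) higher, where 15.0% of all genes had one. Because 3 mice gave both bones, a fit with the mouse as a block compares within animals. It called 5 members in LSD1WT, of which Mmp12 (-0.99), Mmp8 (-0.94), Mmp19 (-0.77) and Timp2 (-1.04) were lower in mandible and Timp3 (2.1) higher. In LSD1cKO it called 6 members, with Mmp9 (-0.71), Mmp12 (-0.97), Mmp8 (-1.47), Mmp19 (-0.98) and Timp2 (-1.29) lower and Timp1 (1.73) higher. The largest adjusted p of these was 0.0477 (edgeR). That fit called 7.71% of all genes in LSD1WT and 36.8% in LSD1cKO. It has 1 residual degree of freedom, and its LSD1WT value comes from 1 mouse. The difference of Timp3 between the genotypes was then -2.92 with an adjusted p of 0.0022 (edgeR), against -2.03 and 1.00 without the block, and 3.25% of all genes were called for that difference.

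Between ligated and unligated femur preosteoclasts 0 of the 9 members were called in either genotype. In LSD1WT the log2 difference of ligated minus unligated femur ran from 0.15 for Mmp12 to 1.31 for Timp3, all 9 positive, as were 54.2% of all genes, with 0 called and 0 at an unadjusted p under 0.05 (edgeR), which 0.765% of all genes had. Both of these groups hold a library poor in osteoclast genes, and without that pair the difference was positive for Mmp9 (0.22), Mmp14 (0.32) and Mmp25 (0.12) and negative for the other members, down to -0.90 for Timp1. In LSD1cKO it ran from -1.66 for Timp1 to 0.25 for Mmp25, and Timp1 was alone at an unadjusted p under 0.05 (0.0300), which 0.959% of all genes had. Timp1 was at 0.155 and 0.263 CPM in ligated and at 0.748 and 0.586 CPM in unligated femur LSD1cKO, which are 4 and 6 against 21 and 16 counts. Over all genes 0% were called in both comparisons. DESeq2 called 0 members there as well.

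**Figure D5:**
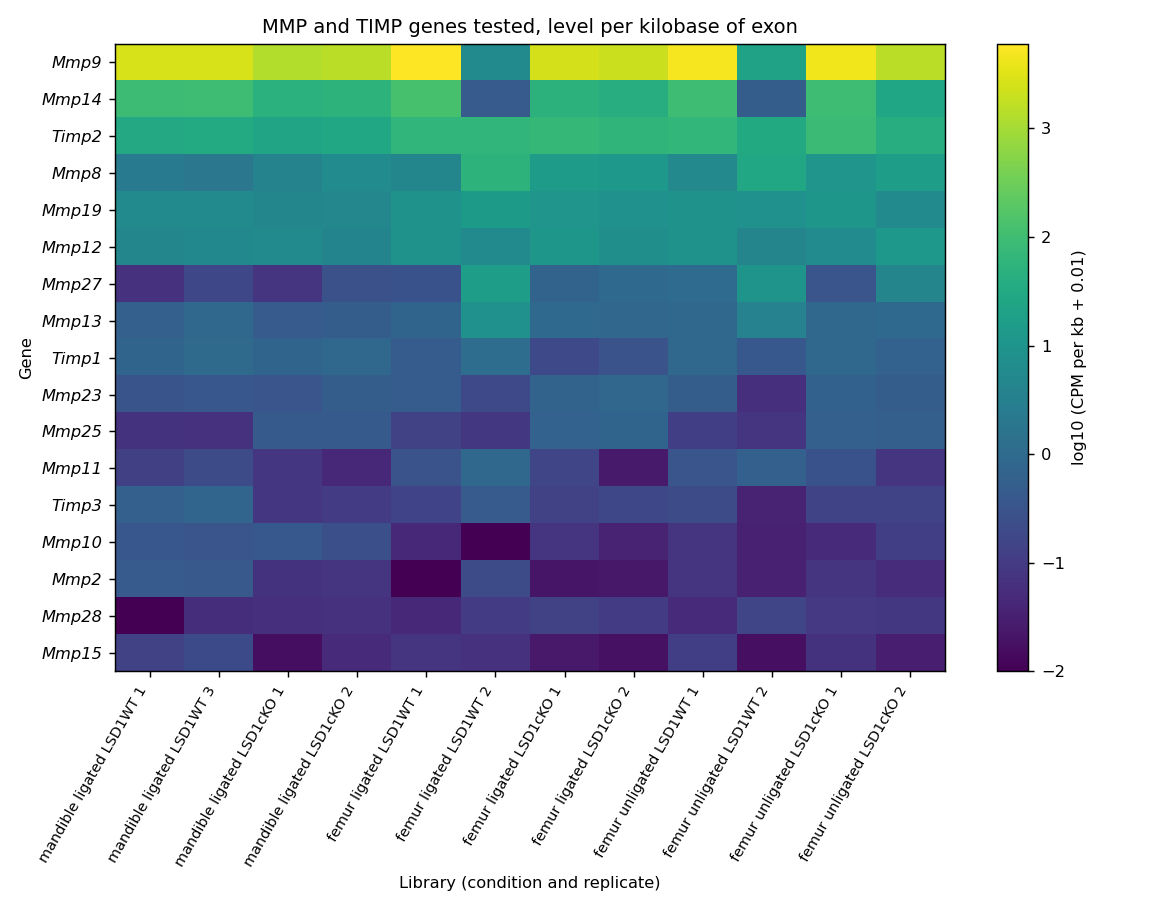
Level per kilobase of exon, as log10 (CPM per kb + 0.01), of the 17 Mmp and Timp genes tested (rows, by mean level) in the 12 libraries (columns). Mmp9 is the brightest row in all but replicate 2 of femur LSD1WT, where Mmp27 and Mmp13 are brighter than in the other columns.

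Of the other 8 tested Mmp genes, 0 were called over the 3 cultures (edgeR). Mmp2, the gelatinase of stromal cells, had 1.47 and 1.36 CPM with LSD1 in the mandible and 0.206 and 0.216 CPM without it, and it moved with the stromal genes given above. Mmp11, Mmp13, Mmp15 and Mmp2 had an unadjusted p under 0.05, with log2 fold changes of -1.91, -1.43, -1.80 and -1.79, and 7.76% of all genes were lower at such a p. Without both femur LSD1WT second libraries the values were -1.36 for Mmp11, -0.0991 for Mmp13, -2.15 for Mmp15 and -1.67 for Mmp2. The values of Mmp15, Mmp11 and Mmp2 rest on low counts, 1 to 28, 1 to 49 and 0 to 37 per library. The other 10 genes of the family, among them Mmp3, Mmp7 and Timp4, had at most 5 counts in any library.

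Genes that act with the MMPs were followed as a list of 24 partners (activators such as Furin and Plau, inhibitors such as Reck, receptors and cofactors), of which 20 were tested. Over the 3 cultures 0 were called in either direction, with 2 higher and 3 lower at an unadjusted p under 0.05 (edgeR), which 16.1% of all genes had, and the median log2 fold change was -0.26. Among the largest changes in size were those of Serpinb2 (1.46), which encodes an inhibitor of plasminogen activators, and Plau (-1.41), which encodes urokinase. Serpinb2 had 1 to 35 counts per library. Plau was at 579 CPM in unligated femur LSD1WT replicate 2 and at 33.3 to 154 CPM in the other 11 libraries, and without both femur LSD1WT second libraries its log2 fold change was -0.42. Furin, a proprotein convertase that activates membrane-type MMPs, had a log2 fold change of -0.53 with an unadjusted p of 0.0071 and an adjusted p of 0.113 (edgeR), and of -0.35 without those libraries.

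Of 21 other metalloproteinases (ADAM, ADAMTS and peptidase genes), 15 were tested and 1 was called, against 3.53% of all genes. Anpep, the aminopeptidase N (CD13) of myeloid cells, was at 93.4 to 129 CPM in the 6 LSD1WT libraries and at 145 to 364 CPM in the 6 LSD1cKO libraries, without overlap (1.98% of all genes upward). Its log2 fold change over the 3 cultures was 1.01 (standard error 0.15, adjusted p = 0.0061, edgeR). The median of the list was 0.01.

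The genes most like each member in log2 CPM over the 12 libraries were named by the highest Pearson r, as a description of libraries that share the genotype and the pair of femur LSD1WT libraries. Mmp25 was most like Bst1, the ectoenzyme CD157 of myeloid and stromal cells (r = 0.997), Crip1 (0.978) and Zfp287 (0.977). Mmp9 was most like Oscar, an osteoclast receptor (0.997), Ephx2 (0.997) and Acp5, the osteoclast acid phosphatase (0.996), and genes most like Mmp14 included Slc18a1 and Myo1d (each 0.997). Mmp8 was most like Rnf130 (0.992), Limd2 (0.990) and Slc8b1 (0.989). Timp3 was most like Serpinh1 (0.906) and Bgn (0.900), genes of collagen-making cells, and Clba1 (0.897). Timp2 was most like Pnrc1 (0.983), Ppm1k (0.962) and Fbxo32 (0.960), Mmp19 most like Arid4a (0.982), Pnpla7 (0.979) and Atg2a (0.974), and Mmp12 most like Trim68 (0.921), Prdm9 (0.902) and Hemk1 (0.901). Timp1, at low counts, reached at most 0.873 (Wasf1).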

How the data were processed

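The authors counted reads of polyA RNA on mouse genes and deposited raw counts, without normalization, in 57010 rows. Submitters' processing notes name GRCm39, HISAT2 2.1.0, FastQC, featureCounts and edgeR. In R 4.3.3 with edgeR 4.0.16, genes were kept with filterByExpr (15425), scaled by TMM, and fitted with quasi-likelihood models over the 12 libraries, with 1 coefficient per condition, or with culture and genotype as terms for the effect over 3 cultures. Benjamini-Hochberg adjusted p was held to 0.05 over all genes. CPM used TMM-scaled totals, and log2 CPM a prior count of 2. The p values measure the spread between libraries, which may be technical in part. Exon lengths came from GENCODE vM21 (GRCm38). Alternatives used DESeq2 1.42.0, limma 3.58.1, other scalings and filters, omitted libraries and blocks.

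Named genes were the members, other Mmp and Timp genes, listed partners and metalloproteinases that passed (otherwise the 3 largest changes), genes of highest r and Kdm1a. Further genes were named with their values in view. Some genes that the rule names are not reported here. Members and lists were chosen with earlier results of these data known. Mandible and femur libraries of 3 animals are paired by mouse in the labels (correlation of deviations 0.030 in LSD1WT and 0.026 in LSD1cKO). Genotypes are different mice.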

Additional observations from a re-analysis of the deposited data

Results flagged for a closer look

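Timp3 went opposite ways between the bones in the 2 genotypes. All mandible LSD1WT libraries (4.85 and 6.20 CPM) lay above the ligated femur LSD1WT libraries (1.13 and 3.69 CPM), and all mandible LSD1cKO libraries (0.584 and 0.772 CPM) lay below the ligated femur LSD1cKO libraries (1.05 and 1.36 CPM). This pattern was looked for in the members alone, and its share over all genes was not computed. In LSD1cKO, mandible libraries lay below ligated femur libraries, as for Timp3, in 35.0% of all genes. The share of genes with mandible libraries above femur libraries, the Timp3 direction in LSD1WT, was not computed. The genotype effect in mandible minus that in femur was -2.03 on the log2 scale (standard error 1.18), with an unadjusted p of 0.122 and an adjusted p of 1.00 in edgeR's quasi-likelihood test, so the difference did not pass. With the mouse as a block it was -2.92, with an adjusted p of 0.0022 (edgeR), in a fit with 1 residual degree of freedom whose LSD1WT arm is 1 mouse and which called 3.25% of all genes. Stromal genes summed to 61.7 and 60.6 CPM in mandible LSD1WT against 2.00 and 35.2 CPM in ligated femur LSD1WT, and their part was not tested.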

How the results depend on the processing

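Mmp25 kept its direction and its call over the 3 cultures in all 12 fits without 1 library (log2 fold change 2.68 to 2.92) and in the 10 other fits (2.62 to 2.88, adjusted p of at most 0.0226 in edgeR, reached with the replicate block). The replicate numbers pair different mice between genotypes, with deviations correlating at 0.025, -0.023 and 0.224, and the block changed no other count of members called in the genotype comparisons. The mouse block called 5 members between the bones in LSD1WT, 6 in LSD1cKO and 1 in the difference of genotype effects (Timp3). Without both femur LSD1WT second libraries, 4 members were called over the 3 cultures (24.2% of all genes), 2 in ligated mandible (5.85%), 2 in ligated femur (9.35%), 1 in unligated femur (2.47%), 1 between the bones in LSD1WT (0.900%) and 3 in LSD1cKO (21.7%). That omission leaves 1 library in each femur LSD1WT condition, so the LSD1WT spread of its single-culture fits comes from the nearly identical mandible pair. DESeq2 called 2 in ligated mandible (0.947% of all genes), 1 in ligated femur (1.41%) and 1 in unligated femur (0.791%). It also called 1 between the bones in LSD1WT. The libraries of the compared conditions alone gave 6 in ligated mandible (37.7% of all genes), where the nearly identical LSD1WT pair enters the spread, and 7 between the bones in LSD1cKO (42.1%). No filter on low counts gave 1 in ligated femur and 1 between the bones in LSD1WT. The share of all genes is not given for these counts, for the DESeq2 count between the bones or for the counts without 1 library that follow. Those counts are therefore not read as results about the members. Without 1 library the count was 0 to 1 in ligated femur (Mmp25, without either unligated femur LSD1WT library) and 0 to 2 between the bones in LSD1WT (Mmp8 and Mmp19, without replicate 1 of ligated femur LSD1WT).

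Directions of single genes turned 59 times in 818 refits, none for Mmp25, and the cause was not tested. Over the 3 cultures the replicate block gave 1.43 for Mmp9, 1.35 for Mmp14 and 0.12 for Mmp8, voom gave 2.48, 1.96 and 0.17, and leaving out both second libraries gave 1.41 for Mmp8 and -0.0934 for Timp2. Without 1 library the ranges were -0.63 to 0.46 for Mmp9, -0.70 to 0.49 for Mmp14, -0.28 to 0.70 for Mmp8 and -0.14 to 0.20 for Timp2. In ligated mandible voom gave -0.0785 for Mmp12, the conflicting library taken as femur gave 0.13 for Timp1, and without 1 library the ranges were -0.25 to 0.26 for Mmp12 and -0.30 to 0.12 for Timp1. In ligated femur the block gave 3.62 for Mmp9 and 2.52 for Mmp14, voom gave 3.64 and 2.30, leaving out both second libraries gave 1.66 for Mmp8, 0.0601 for Mmp19 and 0.17 for Timp3, and the conflicting library as femur gave 0.00321 for Mmp19. Without 1 library the ranges there were -1.37 to 8.74 for Mmp9, -1.47 to 6.74 for Mmp14, -1.92 to 1.57 for Mmp8 and -1.53 to 0.0843 for Timp3. In unligated femur, leaving out both second libraries gave -0.69 for Mmp9, -0.68 for Mmp14, -0.0111 for Mmp12, 1.4 for Mmp8, -0.18 for Timp1, -0.0629 for Timp2 and -0.58 for Timp3, and Mmp8 was 0.10 with the block and 0.12 with voom. Without 1 library the ranges there were -0.71 to 7.25 for Mmp9, -0.94 to 6.98 for Mmp14, -0.12 to 1.13 for Mmp12, -1.02 to 1.4 for Mmp8, -0.71 to 0.41 for Mmp19, -0.18 to 1.07 for Timp1, -0.31 to 1.08 for Timp2 and -0.58 to 2.5 for Timp3. Depth limits Timp1, Timp3 and Mmp25, which had 4 to 24, 5 to 169 and 8 to 88 counts per library.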
